A study of Homo sapiens with 6 samples.

Results

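The genes described here are 41 chaperones, folding enzymes, stress sensors and degradation factors of the endoplasmic reticulum (ER), chosen by their gene names from a table of 33539 genes. Each of the 41 names matched 1 row of that table. The cells were 8505C, a human line that grew out of an anaplastic, that is undifferentiated, carcinoma of the thyroid. For 24 h they had either a control siRNA (NC) or one directed at POLR1F (siPOLR1F), and poly(A) RNA was then sequenced from 3 libraries per group. The protein made from POLR1F belongs to RNA polymerase I, the enzyme that copies the ribosomal RNA genes, and the comparison asks which mRNAs change when POLR1F is silenced. All 6 libraries came from 1 cell line. The labels give no siRNA sequences and do not say whether more than 1 siRNA was used per group. They number the libraries of each group, and the number was read here as a replicate. Whether the libraries of a group were separate cultures is not stated. The p-values thus rest on a spread between libraries that may be technical only.

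Proteins that will be secreted or sit in membranes fold in the lumen of the ER. There, Hsp70 and Hsp90 chaperones hold unfolded chains, lectins bind their sugar chains, and disulfide isomerases pair their cysteines. Chains that fail to fold are exported and degraded by the proteasome, a route called ER-associated degradation. When unfolded protein builds up, the sensors IRE1 (gene ERN1), ATF6 and PERK start the unfolded protein response. IRE1 splices the XBP1 mRNA into the form that encodes an active transcription factor, and ATF6 is cut to release another. Both factors raise transcription of chaperone genes through promoter elements. Gene-level counts do not separate spliced from unspliced XBP1 mRNA.

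Of the 41 genes, 40 passed the filter on low values, a mean of at least 0.5 FPKM over the 6 libraries, and DERL3 did not. FPKM is the number of fragments scaled to the length of the gene and to the number sequenced. By the edgeR quasi-likelihood test, with p-values adjusted over all 13564 genes tested and a threshold of 0.05, 12 of the 40 were higher in siPOLR1F and 2 were lower. Over all tested genes 10.3% were called higher and 6.94% lower, and the counts by role and by list below are to be read beside these shares. The higher genes were GANAB, ERO1A, SELENOS, XBP1, DNAJC3, ERN1, TXNDC11, HSPA5, HYOU1, CANX, P4HB and MANF. MOGS and ATF6B were lower. The log2 fold change exceeded 0.5 in GANAB, ERO1A and SELENOS, and the median was 0.37 among the 12 higher genes. Over all 40 it was 0.084, against -0.014 over all tested genes.

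**Figure D1:**
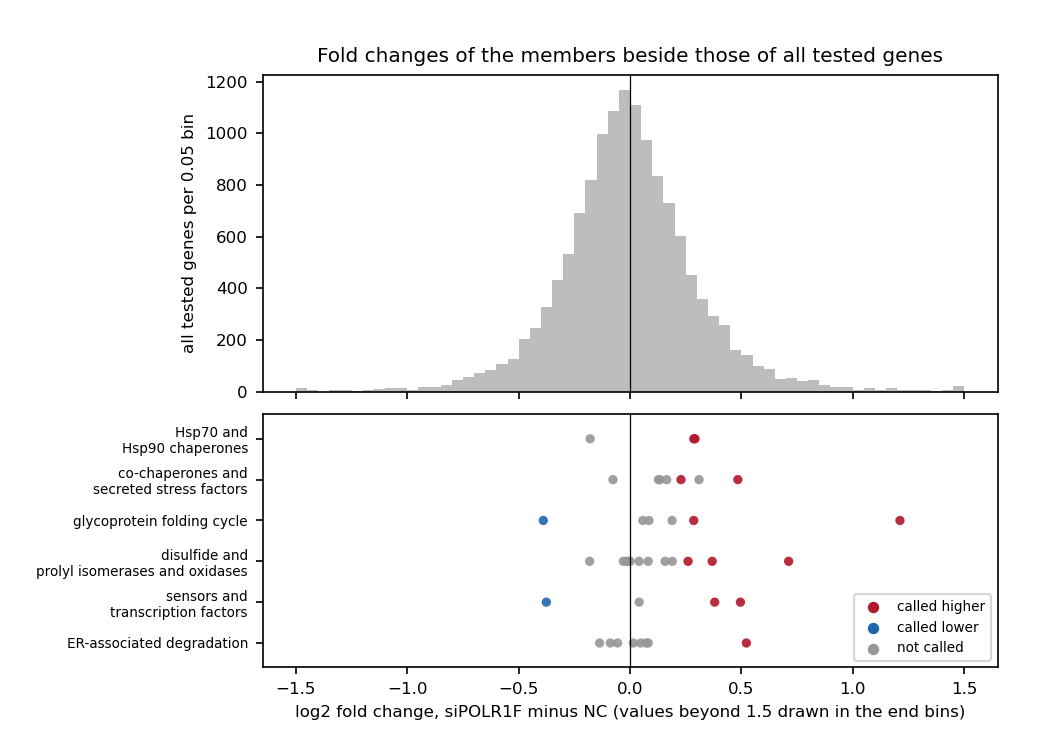
Upper panel: number of tested genes in each bin of log2 fold change (siPOLR1F minus NC). Lower panel: the 40 tested ER genes by role, with 1 point per gene; most lie near 0, 12 called genes lie to the right, GANAB farthest, and MOGS and ATF6B lie to the left.

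The counts of called genes depended on the libraries used. Leaving out NC replicate 1, 2 or 3 gave 10, 12 and 9 higher genes, and leaving out siPOLR1F replicate 1, 2 or 3 gave 7, 10 and 8. Calls over all tested genes fell too: the same 6 fits called 7.90%, 9.78% and 6.47% of them higher without an NC library, and 5.99%, 6.62% and 5.38% without a siPOLR1F library. Lower genes numbered 1, 2 and 1 without NC replicate 1, 2 or 3. They numbered 1, 1 and 0 without siPOLR1F replicate 1, 2 or 3, where in the last case 2 had an unadjusted edgeR p below the threshold. Over all tested genes these fits called 5.22%, 6.20% and 3.97% and 3.27%, 3.81% and 3.12% lower. DESeq2 on all 6 libraries called 13 higher and 2 lower. The calls of GANAB, ERO1A, XBP1, P4HB, SELENOS and TXNDC11 held in each of the 14 alternatives run. As a plainer measure, the FPKM of the 3 siPOLR1F libraries lay entirely above those of NC in 17 of the 40 genes and entirely below in 2, against 18.9% and 19.0% of all tested genes.

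The libraries were alike in depth, with 60576788 to 63038378 counts. Mitochondrially encoded genes took 4.93% to 5.15% of the counts in NC and 4.32% to 4.85% in siPOLR1F. The part of this shift in the results was not tested. POLR1F, the gene targeted, was at 8.80, 8.42 and 7.64 FPKM in NC against 2.09, 1.42 and 1.51 in siPOLR1F, for a log2 fold change of -2.30 ± 0.15 (SE; adjusted p = 9.76e-05 by edgeR). Of the thyroid markers, NKX2-1 was at 45.2 ± 3.02 FPKM in the NC libraries and 27.5 ± 1.62 in the siPOLR1F libraries (SD, n = 3 each), while TG, TSHR and SLC5A5, which mark differentiated thyroid cells, were each below 0.05 FPKM in every library. Of 16 markers of fibroblasts, leukocytes and endothelium that are in the table, 5 passed the filter, CDH5 being the most abundant at 5.65 ± 0.223 FPKM in the NC libraries and 2.72 ± 0.671 in the siPOLR1F libraries (SD, n = 3 each). Their summed FPKM ranged from 2.21 to 2.84 in NC and 2.00 to 2.26 in siPOLR1F for fibroblasts. For leukocytes they ranged from 3.66 to 4.79 and 3.11 to 4.67, and for endothelium from 5.80 to 7.18 and 2.52 to 5.37. PTPRC, which defines leukocytes, was below 0.05 FPKM in every library. The part of the lower endothelial sum in the results was not tested. Of the 5 endothelial markers CDH5 alone passed the filter, and it made up most of that sum. The samples are of 1 cell line, so the sum is a level of transcripts and not a count of endothelial cells.

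The mean level of the 41 genes over the 6 libraries ranged from 0.292 to 255 FPKM, a scale that takes account of gene length. CALR, the lumenal lectin chaperone calreticulin, was the most abundant at 247, 253 and 244 FPKM in NC against 250.4, 261 and 273 in siPOLR1F. It did not pass the test, with a log2 fold change of 0.085 ± 0.046 (SE; adjusted p = 0.238 by edgeR) and a 95% interval of -0.020 to 0.19. HSPA5 followed, then PRKCSH, GANAB and TXNDC5. ERN1, ERO1B and DERL3 were the least abundant. Summed over the 41 genes, FPKM was 1227, 1225 and 1210 in NC and 1357, 1366 and 1421 in siPOLR1F, so that each siPOLR1F library lay above each NC library. The mean sum was 1.13 times that of NC. GANAB alone made up 44.1% of that difference and HSPA5 15.4%. Without GANAB the sums came to 1167, 1175 and 1158 in NC against 1236, 1239 and 1294 in siPOLR1F. Among the 40 tested genes the coefficient of variation between the NC libraries had a median of 5.26% (range 0.381% to 16.8%), and between the siPOLR1F libraries of 4.23% (1.02% to 12.5%).

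**Figure D2:**
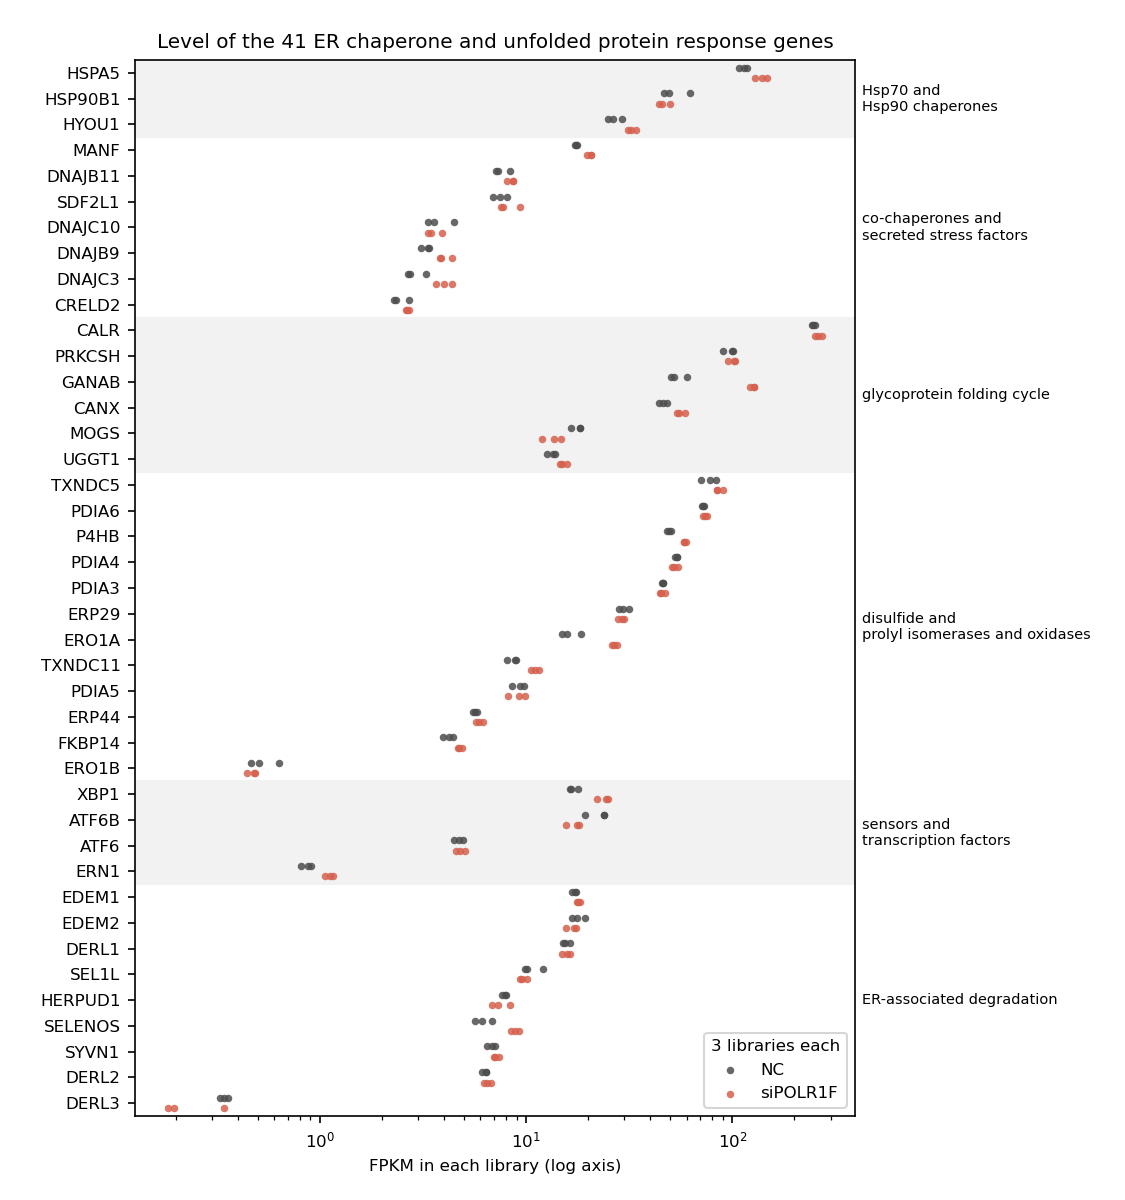
FPKM of each of the 41 genes in the 3 NC and 3 siPOLR1F libraries, on a log axis, grouped by role and ordered by mean level within a role. CALR is at the top of the range and DERL3 at the bottom, and the groups stand clearly apart for GANAB, ERO1A, XBP1 and SELENOS.

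Of the 4 sensors and transcription factors, XBP1 and ERN1 rose, ATF6B fell and ATF6 did not pass. XBP1 (GRCh38 chromosome 22, 28794555 to 28800597, minus strand) was at 16.5, 17.8 and 16.4 FPKM in NC against 24.3, 22.0 and 24.8 in siPOLR1F. Its groups did not overlap, and the log2 fold change was 0.50 ± 0.070 (SE; adjusted p = 0.00292 by edgeR). ERN1 (chromosome 17, 64039080 to 64130819, minus strand), which encodes the kinase and endonuclease IRE1, was scarce, at 0.807, 0.875 and 0.904 FPKM in NC against 1.16, 1.12 and 1.06 in siPOLR1F. These values rest on counts of 1092, 1133 and 1207 in NC and 1547, 1515 and 1417 in siPOLR1F, with no overlap between the groups and a log2 fold change of 0.38 ± 0.080 (SE; adjusted p = 0.0146 by edgeR). The ERN1 call was lost without siPOLR1F replicate 1 or 2 (0.0603 and 0.0508), and limma on log2(FPKM + 1) gave it an adjusted p of 0.110.

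ATF6 (chromosome 1, 161766298 to 161975373, plus strand), which encodes the membrane-bound sensor of that name, was at 4.70, 4.46 and 4.94 FPKM in NC against 5.07, 4.58 and 4.79 in siPOLR1F. Its groups overlapped, and the 95% interval of its log2 fold change of 0.041 was -0.11 to 0.19 (adjusted p by edgeR = 0.716). ATF6B (chromosome 6, 32115264 to 32128253, minus strand), its paralog, encodes a weaker activator of chaperone genes. It was more abundant than ATF6, at 23.7, 19.3 and 23.9 FPKM in NC against 15.6, 18.0 and 17.7 in siPOLR1F, with each siPOLR1F library below each NC library. Its log2 fold change was -0.38 ± 0.095 (SE; adjusted p = 0.0295 by edgeR). That call held without NC replicate 2 but not without NC replicate 1 or 3 (0.0684 and 0.0838) or siPOLR1F replicate 1, 2 or 3 (0.0967, 0.0594 and 0.0719).

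The XBP1 promoter is shown because XBP1 protein and ATF6 act on the chaperone genes through an element that XBP1 itself carries. The sequence is the 200 bases before the RefSeq start site (GRCh38.p14), 5′ to 3′ on the strand of the gene. Capitals mark the fixed letters of the ER stress response element, CCAAT and CCACG separated by 9 bases.
XBP1 (chr22:28800570-28800769, minus strand): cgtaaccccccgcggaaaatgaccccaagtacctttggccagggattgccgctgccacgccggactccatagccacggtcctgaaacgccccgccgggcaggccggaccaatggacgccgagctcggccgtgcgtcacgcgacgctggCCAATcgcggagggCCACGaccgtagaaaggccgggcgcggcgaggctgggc

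Of the 3 large chaperones, HSPA5 and HYOU1 rose and HSP90B1 did not pass. HSPA5 (chromosome 9, 125234853 to 125241382, minus strand) encodes BiP, the Hsp70 of the ER, which also holds the sensors inactive. It was at 114, 118 and 108 FPKM in NC against 139, 128 and 147 in siPOLR1F, with the highest NC library below the lowest siPOLR1F library. The log2 fold change was 0.29 ± 0.063 (SE; adjusted p = 0.0162 by edgeR). HYOU1 (chromosome 11, 119044188 to 119057227, minus strand), an Hsp110-type partner that exchanges the nucleotide of BiP, was at 25.1, 29.2 and 26.3 FPKM in NC against 32.2, 31.2 and 34.2 in siPOLR1F. It changed by nearly the same amount, with a log2 fold change of 0.29 ± 0.067 (SE; adjusted p = 0.0220 by edgeR). The HSPA5 call was lost without siPOLR1F replicate 1 or 3 (0.0533 and 0.0607), and the HYOU1 call without NC replicate 1 or 3 (0.0523 and 0.0731) or siPOLR1F replicate 1 or 3 (0.0623 and 0.0835).

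HSP90B1 (chromosome 12, 103930107 to 103948015, plus strand) encodes GRP94, the Hsp90 of the ER. It was at 62.2, 49.4 and 46.8 FPKM in NC against 49.6, 45.7 and 44.0 in siPOLR1F. NC replicate 1 stood above the other 5 libraries, which lay between 44.0 and 49.6. The log2 fold change was -0.18 ± 0.11 (SE; adjusted p = 0.275 by edgeR), with a 95% interval of -0.42 to 0.061. Without NC replicate 1 it was -0.043 (adjusted p by edgeR = 0.717).

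The promoters of HSPA5 and HYOU1 are shown in the same way, since both genes rose and carry different forms of the element. In HSPA5 the first form reads CCAAT, 9 bases, CCACG. HYOU1 holds 2 copies of the second form, ATTGG, 1 base, CCACG. Both read from the opposite strand and so appear here as CGTGG, 1 base, CCAAT.
HSPA5 (chr9:125241344-125241543, minus strand): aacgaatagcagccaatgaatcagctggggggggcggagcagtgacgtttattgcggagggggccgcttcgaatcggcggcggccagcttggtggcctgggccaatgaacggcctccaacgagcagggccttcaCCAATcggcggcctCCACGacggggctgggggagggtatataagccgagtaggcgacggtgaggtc
HYOU1 (chr11:119057206-119057405, minus strand): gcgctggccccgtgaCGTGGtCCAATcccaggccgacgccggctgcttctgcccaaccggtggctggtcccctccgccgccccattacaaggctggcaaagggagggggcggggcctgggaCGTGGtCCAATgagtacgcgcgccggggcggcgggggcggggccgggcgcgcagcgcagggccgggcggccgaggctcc

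Of the 7 co-chaperones and secreted stress factors, DNAJC3 and MANF rose and the other 5 did not pass. DNAJC3 (chromosome 13, 95677139 to 95794988, plus strand), a J-domain protein of the lumen also known as p58IPK, was at 2.73, 3.27 and 2.68 FPKM in NC against 4.39, 3.67 and 4.01 in siPOLR1F. Its log2 fold change was 0.48 ± 0.11 (SE; adjusted p = 0.0180 by edgeR), and the groups did not overlap. MANF (chromosome 3, 51385291 to 51389397, plus strand), a secreted factor that binds BiP, was at 17.6, 17.3 and 17.4 FPKM in NC against 19.8, 20.7 and 20.5 in siPOLR1F. The NC libraries lay within a narrow band and each siPOLR1F library stood above it, with a log2 fold change of 0.23 ± 0.060 (SE; adjusted p = 0.0338 by edgeR). DNAJC3 lost its call without NC replicate 1 or 3 (0.0538 and 0.0689) or siPOLR1F replicate 1 or 3 (0.0668 and 0.0609). MANF kept its call without NC replicate 1 but not without NC replicate 2 or 3 (0.0706 and 0.0777) or siPOLR1F replicate 1, 2 or 3 (0.0688, 0.109 and 0.111).

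DNAJB9 (ERdj4), a J-domain co-chaperone that acts on IRE1 through BiP, was at 3.33, 3.37 and 3.10 FPKM in NC against 3.84, 3.86 and 4.37 in siPOLR1F. Its groups did not overlap, but it did not pass the test, with a log2 fold change of 0.31 ± 0.11 (SE; adjusted p = 0.0902 by edgeR) and a 95% interval of 0.057 to 0.56. DNAJB11 (ERdj3) had a log2 fold change of 0.16 ± 0.072 (SE; adjusted p = 0.150 by edgeR), and passed without NC replicate 2 (0.0475). The J-domain reductase DNAJC10 (ERdj5) was at 4.48, 3.57 and 3.34 FPKM in NC against 3.93, 3.34 and 3.47 in siPOLR1F, with NC replicate 1 the highest of the 6 libraries. SDF2L1, a partner of J-domain proteins, and CRELD2, a secreted disulfide isomerase, had log2 fold changes of 0.13 and 0.13 (adjusted p by edgeR = 0.521 and 0.400). CRELD2 overlaps ALG12 on the other strand and DNAJB11 overlaps TBCCD1. Without a stated strand setting, their reads may be divided with those genes.

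Of the 6 genes of the glycoprotein folding cycle, GANAB and CANX rose, MOGS fell, and CALR, PRKCSH and UGGT1 did not pass. In this cycle glucosidase I (MOGS) and glucosidase II trim glucose from new sugar chains, calnexin and calreticulin bind the trimmed chains, and UGGT1 puts a glucose back on chains that are still unfolded. GANAB (chromosome 11, 62624826 to 62646726, minus strand) encodes the catalytic subunit of glucosidase II. It was at 60.0, 50.2 and 52.4 FPKM in NC against 121, 127 and 127 in siPOLR1F, and the lowest siPOLR1F library had over 2 times the level of the highest NC library. The mean was 54.2 ± 5.14 FPKM in the NC libraries and 125 ± 3.32 in the siPOLR1F libraries (SD, n = 3 each), for a log2 fold change of 1.21 ± 0.071 (SE; adjusted p = 7.36e-05 by edgeR). Of the 1391 genes called higher, 28 changed by at least as much, GANAB included.

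PRKCSH (chromosome 19, 11435284 to 11450968, plus strand) encodes the other subunit of glucosidase II, which keeps the enzyme in the ER. It was at 89.8, 101 and 99.1 FPKM in NC against 95.1, 103 and 102 in siPOLR1F. Its groups overlapped, and its log2 fold change was 0.057 ± 0.057 (SE; adjusted p = 0.518 by edgeR), with a 95% interval of -0.072 to 0.19. MOGS (chromosome 2, 74461057 to 74465403, minus strand), which acts before glucosidase II, was at 18.2, 16.6 and 18.2 FPKM in NC against 11.9, 14.7 and 13.7 in siPOLR1F. Each siPOLR1F library lay below each NC library, and the log2 fold change was -0.39 ± 0.084 (SE; adjusted p = 0.0166 by edgeR). The MOGS call was lost without siPOLR1F replicate 3 (0.0540).

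CANX (chromosome 5, 179678628 to 179731622, plus strand) encodes calnexin, the membrane-bound lectin chaperone. It was at 46.3, 48.4 and 43.9 FPKM in NC against 59.0, 54.2 and 55.0 in siPOLR1F, with no overlap and a log2 fold change of 0.29 ± 0.056 (SE; adjusted p = 0.0116 by edgeR). The lumenal counterpart CALR, given above, had a log2 fold change of 0.085. UGGT1 (chromosome 2, 128091200 to 128195677, plus strand), the glucosyltransferase that senses folding, was at 12.6, 13.8 and 13.5 FPKM in NC against 15.0, 14.5 and 15.7 in siPOLR1F. It lay just outside the threshold, with a log2 fold change of 0.19 ± 0.057 (SE; adjusted p = 0.0525 by edgeR), and DESeq2 called it (adjusted p = 0.0217).

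Of the 12 genes for disulfide and prolyl isomerases and their oxidases, ERO1A, TXNDC11 and P4HB rose and 9 did not pass. ERO1A (chromosome 14, 52639915 to 52695900, minus strand) encodes the oxidase that hands oxidizing equivalents to disulfide isomerases. It was at 18.5, 15.8 and 15.0 FPKM in NC against 27.5, 26.2 and 26.7 in siPOLR1F, for a log2 fold change of 0.71 ± 0.082 (SE; adjusted p = 0.00107 by edgeR). NC replicate 1 was the highest NC library and still well below all siPOLR1F libraries. ERO1B, the second oxidase, was near the filter, at 0.635, 0.463 and 0.505 FPKM in NC against 0.480, 0.483 and 0.443 in siPOLR1F, and did not pass, with a log2 fold change of -0.18 ± 0.15 (SE; adjusted p = 0.430 by edgeR). Its wide 95% interval of -0.52 to 0.15 includes 0.

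P4HB (chromosome 17, 81843159 to 81860624, minus strand), the disulfide isomerase PDI itself and a subunit of collagen prolyl hydroxylase, was at 48.4, 50.4 and 49.4 FPKM in NC against 58.6, 58.6 and 59.6 in siPOLR1F. Both groups were tight and did not overlap, and the log2 fold change was 0.26 ± 0.041 (SE; adjusted p = 0.00454 by edgeR). TXNDC11 (chromosome 16, 11679083 to 11742857, minus strand), a thioredoxin-domain protein that works with EDEM proteins in degradation, was at 8.11, 8.84 and 8.92 FPKM in NC against 11.1, 10.6 and 11.5 in siPOLR1F. Its log2 fold change was 0.37 ± 0.069 (SE; adjusted p = 0.00972 by edgeR). TXNDC11 overlaps SNN on the other strand, a gene with 37.1% of its counts and a log2 fold change of -0.53 (adjusted p by edgeR = 0.0157), and the counting may have split reads between the pair.

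The abundant isomerases PDIA3, PDIA4 and PDIA6 did not pass. PDIA3 (ERp57), the partner of calnexin and calreticulin, was at 46.2, 46.1 and 45.8 FPKM in NC against 44.8, 45.3 and 47.4 in siPOLR1F, with a 95% interval of its log2 fold change of -0.098 to 0.099. For PDIA4 and PDIA6 the intervals were -0.13 to 0.096 and -0.061 to 0.14. The estimate for P4HB lies outside all 3 intervals. The isomerase PDIA5, the chaperone ERP29 and the thiol-retention protein ERP44 had log2 fold changes of -0.0078, -0.030 and 0.082 (adjusted p by edgeR = 0.966, 0.760 and 0.363), and the collagen prolyl isomerase FKBP14 of 0.19 (0.115). PDIA5 overlaps SEC22A on the same strand.

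TXNDC5 (ERp46), one of the 5 most abundant genes, was at 78.3, 70.9 and 83.7 FPKM in NC against 84.1, 84.6 and 89.8 in siPOLR1F. Its groups did not overlap, but it did not pass, with a log2 fold change of 0.16 ± 0.066 (SE; adjusted p = 0.136 by edgeR). The readthrough locus BLOC1S5-TXNDC5, which contains it, was given 4274 counts in NC replicate 2 and 0 in each of the other 5 libraries. With these reads added, TXNDC5 had 384, 415 and 407 CPM (counts scaled to the total of each library) in NC against 412, 412 and 431 in siPOLR1F. NC replicate 2, the lowest library for TXNDC5 alone, was then the highest NC library, above siPOLR1F replicates 1 and 2, and the groups overlapped, although TXNDC5 alone is among the 17 genes given above as not overlapping.

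Of the 9 degradation genes, 8 were tested, SELENOS rose and 7 did not pass. The share called higher was 12.5%, near the 10.3% of all tested genes. SELENOS (chromosome 15, 101270817 to 101277485, minus strand), a selenoprotein of the ER membrane that links the retrotranslocation complex to the ATPase p97, was at 5.63, 6.85 and 6.11 FPKM in NC against 8.50, 9.21 and 8.87 in siPOLR1F. Each siPOLR1F library exceeded each NC library, and the log2 fold change was 0.52 ± 0.084 (SE; adjusted p = 0.00514 by edgeR). Other genes of the same complex on the list did not pass. The log2 fold change was 0.082 for SYVN1, the ubiquitin ligase HRD1, -0.14 for its adaptor SEL1L, 0.015 for DERL1 and 0.048 for DERL2, both channel subunits. Their adjusted p-values by edgeR were 0.422, 0.312, 0.885 and 0.653. SYVN1 overlaps FAU and MRPL49, which have more counts than it does, and DERL1 overlaps TBC1D31.

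HERPUD1, a stress-induced membrane protein that recruits this complex, was at 7.64, 7.92 and 8.02 FPKM in NC against 6.87, 7.34 and 8.35 in siPOLR1F. Its siPOLR1F libraries spanned the NC range, with a log2 fold change of -0.055 ± 0.082 (SE; adjusted p = 0.680 by edgeR). EDEM1, a mannosidase-like protein that marks chains for degradation, was at 17.5, 16.7 and 17.2 FPKM in NC against 17.9, 17.7 and 18.2 in siPOLR1F. Its groups did not overlap, yet the difference was small, with a log2 fold change of 0.072 ± 0.050 (SE; adjusted p = 0.354 by edgeR). Its relative EDEM2 had a log2 fold change of -0.088 ± 0.080 (SE; adjusted p = 0.484 by edgeR). DERL3, the third derlin, failed the filter at 0.327, 0.343 and 0.359 FPKM in NC against 0.196, 0.342 and 0.183 in siPOLR1F, which rest on counts of 91, 93 and 97 in NC and 55, 96 and 53 in siPOLR1F. It lies across SMARCB1, on the other strand, which has more than 50 times its counts, so these values are uncertain.

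**Figure D3:**
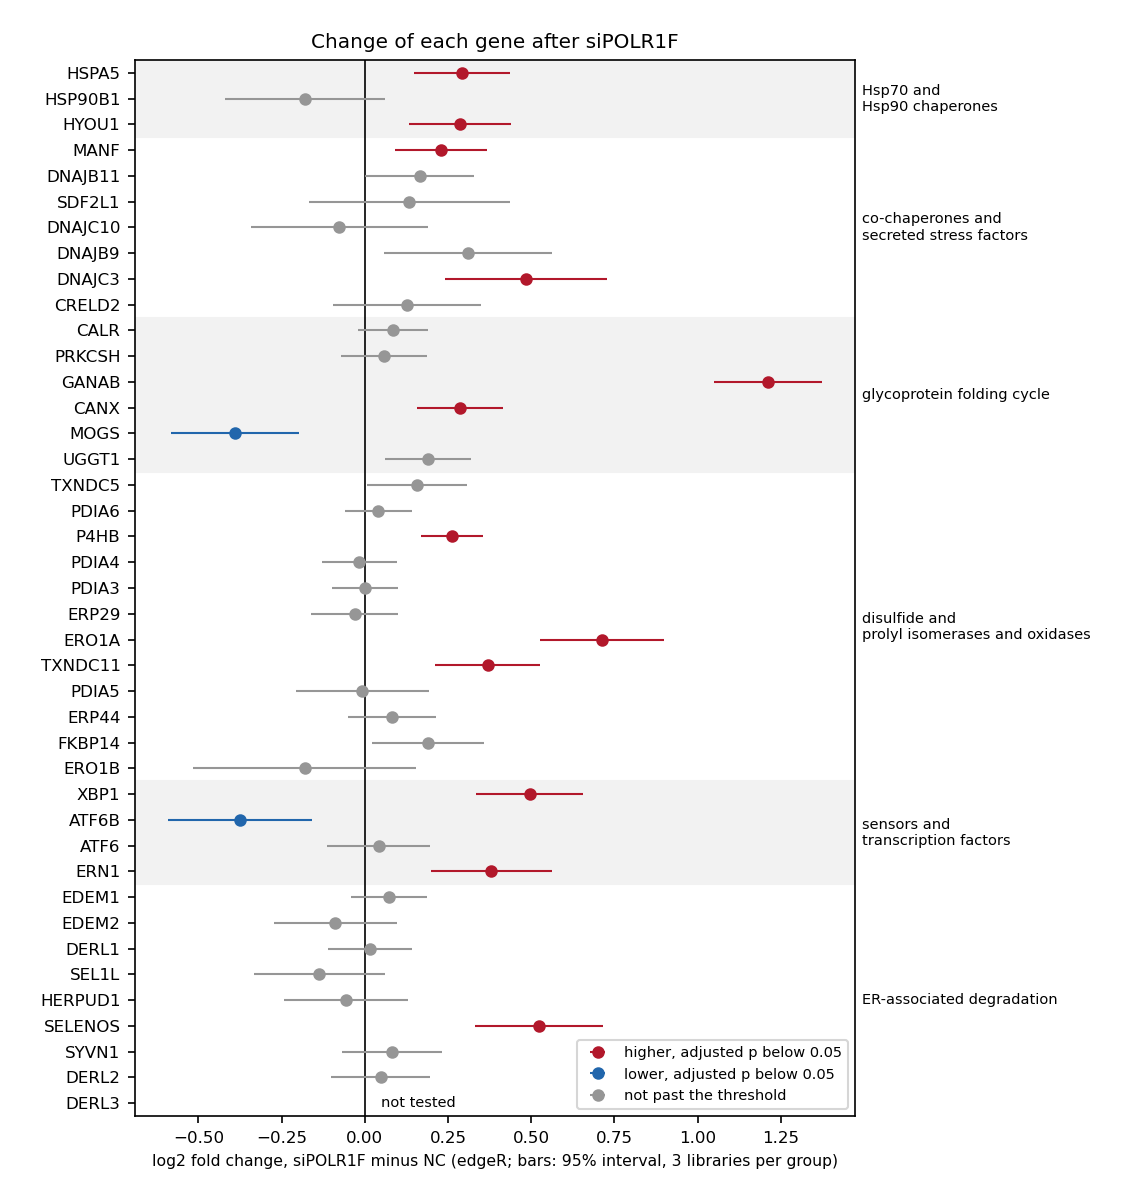
The log2 fold change (siPOLR1F minus NC) of the 40 tested genes by role, with 95% intervals from the edgeR fit and 3 libraries per group; red and blue points passed the threshold. GANAB and ERO1A lie farthest to the right, and PDIA3, PDIA4 and PDIA6 have short intervals around 0.

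To compare the levels per length of partners or paralogs within a library, the ratio of their FPKM was taken for 5 pairs. The pairs were chosen with their values known, so the ratios are a description and no test result is drawn from them. The ratio of GANAB to PRKCSH was 0.669, 0.496 and 0.529 in NC against 1.27, 1.24 and 1.24 in siPOLR1F. PRKCSH exceeded GANAB in each NC library and GANAB exceeded PRKCSH in each siPOLR1F library. The ratio of ERO1A to ERO1B was 29.1, 34.1 and 29.7 in NC against 57.2, 54.3 and 60.2 in siPOLR1F, the denominator being close to the filter. HSPA5 to HSP90B1 gave 1.84, 2.39 and 2.30 in NC against 2.80, 2.81 and 3.35 in siPOLR1F, with the lowest value in NC replicate 1. XBP1 to ATF6 gave 3.51, 4.0 and 3.32 in NC against 4.80, 4.81 and 5.19 in siPOLR1F, and ATF6B to ATF6 gave 5.05, 4.33 and 4.84 in NC against 3.08, 3.93 and 3.70 in siPOLR1F. In none of the 5 pairs did the groups overlap. Each pair holds a gene called above, so this separation restates those calls and adds no support to them.

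**Figure D4:**
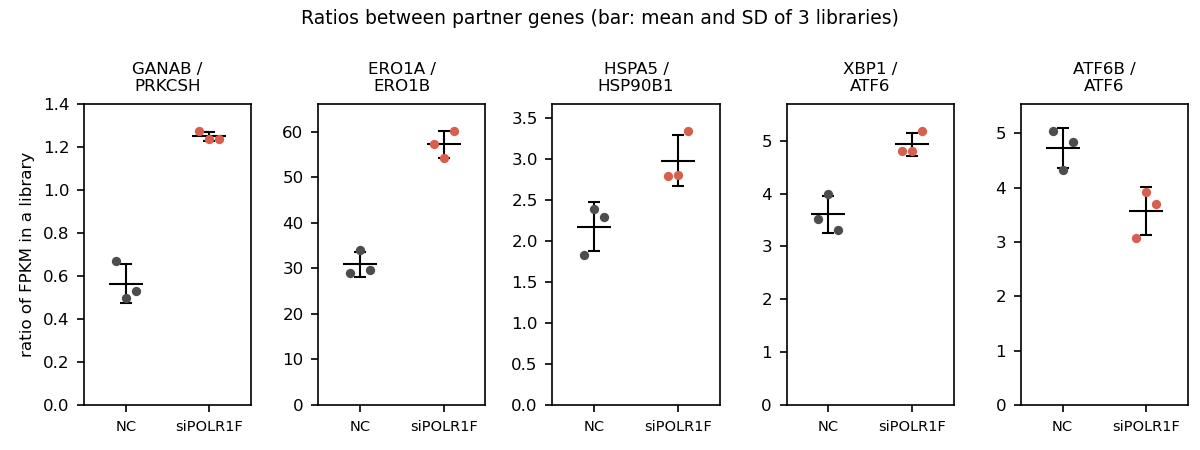
Ratio of FPKM within each library for 5 pairs of genes, with 1 point per library and the mean and SD of the 3 libraries in each group; each axis starts at 0. The GANAB to PRKCSH ratio lies below 0.7 in NC and above 1.2 in siPOLR1F, and only the ATF6B to ATF6 ratio is lower in siPOLR1F.

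The ER stress response element was then searched in the promoters of the 41 genes, on both strands, from 250 bases before to 50 bases after each RefSeq start. The first form was CCAAT and CCACG with 9 free bases between them, the second ATTGG and CCACG with 1 free base, so that either form contains CCACG and, on one strand or the other, CCAAT. Of the 41 genes, 36 had an entry, with 45 windows. An exact match to either form was found in 11 of the 36 (30.6%). Over all promoters it was found in 0.161% of the 27305 genes with an entry and 0.131% of the 35116 windows. The element was defined on promoters of such genes, so its presence here is a description of the list. The copies outside the promoters shown above are given in the orientation of the motif, with its fixed letters in capitals. The search required those letters, so only the free bases can differ between genes.
CANX (first form, chr5:179698778-179698796, plus strand): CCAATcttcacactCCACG
CALR (first form, chr19:12938384-12938402, minus strand): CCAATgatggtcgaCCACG
HSP90B1 (first form, chr12:103930216-103930234, plus strand): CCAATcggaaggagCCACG
HSP90B1 (first form, chr12:103930321-103930339, minus strand): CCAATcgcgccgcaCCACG
PDIA6 (first form, chr2:10812853-10812871, minus strand): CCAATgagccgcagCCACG
CRELD2 (first form, chr22:49918554-49918572, minus strand): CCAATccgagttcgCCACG
ERO1B (first form, chr1:236282183-236282201, plus strand): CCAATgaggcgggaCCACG
HERPUD1 (second form, chr16:56932025-56932035, plus strand): ATTGGgCCACG
SDF2L1 (second form, chr22:21642114-21642124, minus strand): ATTGGtCCACG

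Of the 11, XBP1, HSPA5, HYOU1 and CANX were higher and the other 7 did not pass. Of the 25 genes whose windows lacked an exact copy, 8 were higher and 1 lower, against 10.3% and 6.94% of all tested genes. The median log2 fold change was 0.13 with the element and 0.082 without. GANAB, ERO1A, SELENOS and P4HB, which rose, are among the 25. HSP90B1 holds 2 exact copies of the first form and had a log2 fold change of -0.18, while HSPA5 holds 1 exact copy and had 0.29. Copies that differ in a fixed letter were not counted. The shorter element TGACG followed directly by TGG, which XBP1 and ATF6 bind, was in the windows of DNAJC10, TXNDC5, HYOU1 and TXNDC11, against 0.927% of all genes. In HYOU1 it overlaps 1 of the copies of the second form. A match says nothing about binding in these cells.

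**Figure D5:**
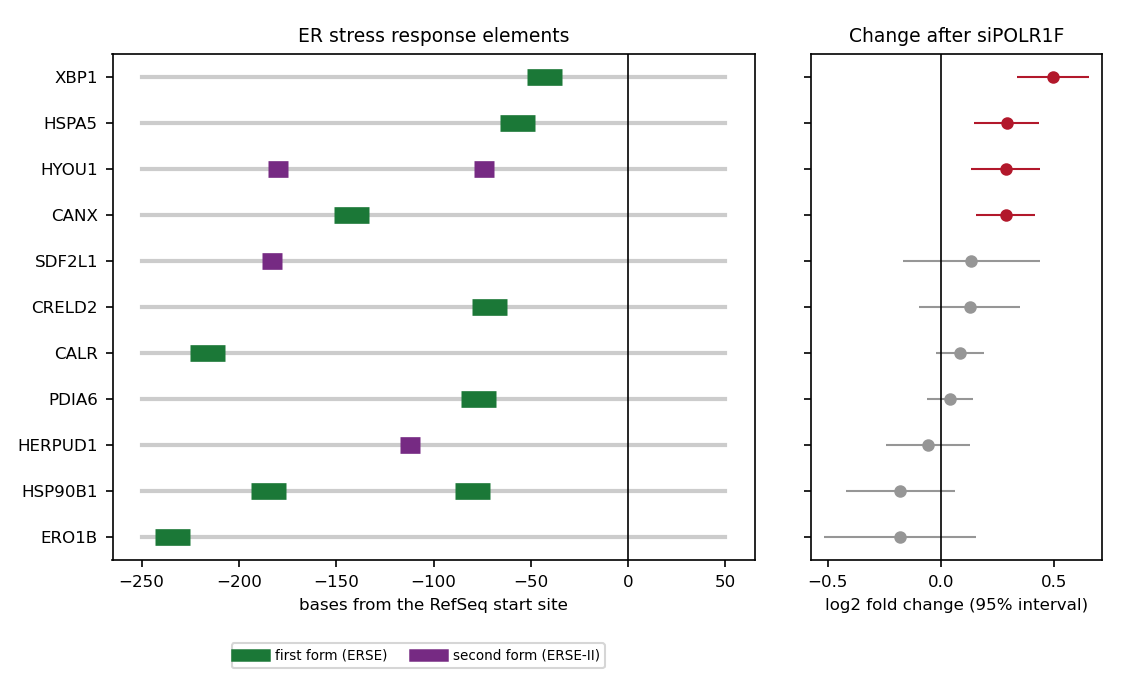
Left: position of each exact copy of the ER stress response element in the 11 genes that hold one, ordered by fold change. Positions are relative to the RefSeq start site (vertical line at 0). For CANX the start with the copy at 151 to 133 bases upstream is drawn. Right: log2 fold change with its 95% interval; XBP1, HSPA5, HYOU1 and CANX were called higher, and copies at like positions are found in called and uncalled genes.

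Textbook targets of ATF6 and XBP1 were read in the same way. Of 7 genes known to depend on ATF6 (HSPA5, HSP90B1, CALR, PDIA4, HYOU1, CRELD2 and HERPUD1), HSPA5 and HYOU1 were higher and 5 did not pass, with a median of 0.085. Of 6 known to depend on XBP1 (DNAJB9, DNAJB11, DNAJC3, EDEM1, PDIA6 and SERP1), DNAJC3 was higher and 5 did not pass, with a median of 0.12. Over all tested genes 10.3% were called higher, and the median log2 fold change was -0.014. HSPA5, HYOU1 and DNAJC3 each lost their call without siPOLR1F replicate 1 or 3, as given above.

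Outside the 41, other genes of the ER and of its stress pathways were read from 6 lists with 143 tested genes, of which 22 were higher and 11 lower. The shares over all tested genes are 10.3% and 6.94%. Leaving out NC replicate 1, 2 or 3 gave 14, 18 and 11 higher and 9, 11 and 6 lower. Leaving out siPOLR1F replicate 1, 2 or 3 gave 11, 15 and 11 higher and 5, 6 and 5 lower. The shares of all tested genes called in those 6 fits are the lower ones given above for each library left out. The third arm of the unfolded protein response, which runs from PERK (EIF2AK3) to ATF4, had 4 of 12 genes higher and 8 not called. The log2 fold change was positive in 9 of the 12 and negative in 3. TRIB3, a pseudokinase induced by ATF4, was at 11.4, 11.1 and 10.8 FPKM in NC against 18.4, 16.6 and 19.4 in siPOLR1F, for a log2 fold change of 0.71 ± 0.076 (SE; adjusted p = 7.75e-04 by edgeR). PPP1R15A, which restores translation, was at 27.2, 26.6 and 26.3 FPKM in NC against 59.8, 42.9 and 47.1 in siPOLR1F, for a log2 fold change of 0.91 ± 0.11 (SE; adjusted p = 0.00154 by edgeR). Neither gene overlapped between the groups. DDIT3, which encodes the stress factor CHOP, had a log2 fold change of 1.10 ± 0.29 (SE; adjusted p = 0.0320 by edgeR) and CEBPB of 0.33 ± 0.086 (SE; adjusted p = 0.0322 by edgeR). DDIT3 lost its call without NC replicate 2 or 3 (0.0626 and 0.0883) or siPOLR1F replicate 1, 2 or 3 (0.104, 0.0535 and 0.0588), and CEBPB without NC replicate 1 or 3 (0.0800 and 0.0922) or siPOLR1F replicate 1 or 3 (0.101 and 0.111). EIF2AK3 and ATF4 themselves did not pass, with log2 fold changes of -0.056 and 0.10 (adjusted p by edgeR = 0.732 and 0.191).

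Among 48 tested folding enzymes and receptors outside the list, 6 rose and 3 fell. These shares of 12.5% and 6.25% were near the 10.3% and 6.94% of all tested genes. MESD, the chaperone of LDL receptor family proteins, was at 3.52, 3.49 and 3.63 FPKM in NC against 7.86, 8.52 and 8.91 in siPOLR1F, for a log2 fold change of 1.26 ± 0.069 (SE; adjusted p = 7.13e-05 by edgeR). PRDX4, the peroxiredoxin of the ER that also oxidizes disulfide isomerases, was at 38.7, 39.5 and 38.8 FPKM in NC against 68.0, 70.5 and 69.7 in siPOLR1F, for a log2 fold change of 0.84 ± 0.049 (SE; adjusted p = 7.13e-05 by edgeR). Both groups of each gene were tight and well apart. TXNDC12 had a log2 fold change of 0.45 (adjusted p by edgeR = 0.00119), and the cargo receptor subunit MCFD2 of -0.23 (0.0151). MCFD2 lost its call without NC replicate 3 (0.05001) or siPOLR1F replicate 1 or 2 (0.0583 and 0.0633).

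Among 33 further degradation genes 7 rose and 4 fell (21.2% and 12.1%, against 10.3% and 6.94% of all tested genes). ERLIN1 and ERLIN2, which form 1 complex in the ER membrane, had log2 fold changes of 0.55 and 0.59 (adjusted p by edgeR = 4.30e-04 and 0.00204). AUP1, which recruits a ubiquitin-conjugating enzyme, had a log2 fold change of 0.54 ± 0.056 (SE; adjusted p = 6.97e-04 by edgeR), and UBE2J1, a ubiquitin-conjugating enzyme of the HRD1 complex, of -0.46 ± 0.053 (SE; adjusted p = 0.00116 by edgeR). UBE2J1 was at 47.7, 49.7 and 48.2 FPKM in NC against 34.2, 34.3 and 37.2 in siPOLR1F, with the siPOLR1F libraries all below NC.

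Genes of protein entry into the ER showed no common direction. Of 25 translocation genes 2 rose and 3 fell (8% and 12%, against 10.3% and 6.94% of all tested genes). The signal recognition particle genes SRP19, SRP9 and SRP54 had log2 fold changes of 0.74, -0.44 and -0.24 (adjusted p by edgeR = 0.00134, 0.00332 and 0.0227). SEC61A1, the channel subunit, was at 42.7, 45.4 and 43.4 FPKM in NC against 31.2, 34.5 and 38.0 in siPOLR1F, for a log2 fold change of -0.34 ± 0.069 (SE; adjusted p = 0.0139 by edgeR). SRP54 lost its call without siPOLR1F replicate 1, 2 or 3 (0.0799, 0.0621 and 0.0743). Of 12 oligosaccharyltransferase genes, which attach the sugar chains that GANAB and MOGS later trim, OSTC alone passed, with a log2 fold change of 0.23 ± 0.059 (SE; adjusted p = 0.0294 by edgeR). OSTC lost its call with any 1 library left out (adjusted p by edgeR = 0.0571 to 0.0872). Of 13 tested genes of stress signalling at the ER membrane, TRAF2, an adaptor that binds IRE1, rose, with a log2 fold change of 0.82 ± 0.098 (SE; adjusted p = 0.00129 by edgeR). CREB3, a membrane-bound factor related to ATF6, had 0.22 ± 0.063 (SE; adjusted p = 0.0466 by edgeR), and NFYB, a subunit of the factor that binds CCAAT, -0.36 ± 0.090 (SE; adjusted p = 0.0273 by edgeR). CREB3 lost its call with any 1 library left out, and NFYB without any but NC replicate 3 (adjusted p by edgeR = 0.0733 to 0.144 and 0.0555 to 0.0911).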

How the data were processed

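Poly(A) RNA of 3 NC and 3 siPOLR1F libraries was sequenced. Groups came from the sample titles, and the number at the end of each title was taken as the replicate number. The tools named, per the submitters' processing notes, are fastp, HISAT2 and StringTie, and the genome build is GRCh38 (hg38). Their versions, the gene annotation and the strand setting were not given in the sources used here. The authors deposited 1 table with whole-number counts and FPKM per gene and library. Counts were used as deposited and tested with edgeR 4.0.16 (R 4.3.3; TMM factors, glmQLFit, glmQLFTest, two-sided, Benjamini-Hochberg) after removing genes whose mean FPKM was under 0.5. The 13564 genes left held 99.4% of counts. The SE is the fold change divided by the root of F, and 95% intervals use the test's degrees of freedom. The test was checked on simulated counts drawn for independent libraries. That check does not address whether the libraries here were separate cultures. Alternatives used DESeq2 1.42.0, limma 3.58.1 on log2(FPKM + 1) or log2(FPKM + 0.1), other scalings and filters, the replicate number as a block, and each library left out.

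The members, lists and tests were chosen with earlier results of these data known. The rule for named genes gave library values for called members, the 5 most abundant, the 4 sensors and DERL3, and up to 4 called genes per further list; other members were added after their values were seen. Some genes of the marker lists are not reported here. Chi-square tests of each pair of libraries found differences beyond sampling noise in every pair. Promoters are from RefSeq (GRCh38.p14).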

Additional observations from a re-analysis of the deposited data

How the results depend on the processing

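The number of genes called higher was 1391 and lower 942, and 663 and 313 with no FPKM filter. With each library left out in turn they were 730 to 1326 higher and 423 to 841 lower. ER genes called higher numbered 12, with 7 to 12 when a library was left out. ER genes called lower numbered 2, with 0 to 2 when a library was left out, and 0 with no FPKM filter, where 2 had an unadjusted edgeR p below the threshold and 8 were higher. DESeq2 and limma on log2(FPKM + 1) each called 2 lower with all libraries, against 9.64% and 6.51% of all tested genes. With the replicate number as a block (replicate block) the ER genes called were 12 higher and 2 lower, and all genes 1517 and 1125. Same-numbered libraries had correlations of deviations of 0.293, 0.016 and 0.274, and each NC library correlated best with the siPOLR1F library of its own number. The labels do not say whether equal numbers are pairs, and the main test did not take them as such. Differences shared by libraries of the same number thus remain in its spread. No called ER gene changed sign in any alternative. Of the 26 uncalled ER genes 8 changed sign in at least 1 alternative, with estimates near 0. PDIA3 was -0.012 with library size alone, -0.0070 and -0.0069 with limma on log2(FPKM + 0.1) and log2(FPKM + 1), and -0.016 at a mean FPKM of at least 5. DERL1 was -0.0017 at a mean FPKM of at least 5, and PDIA5 0.0031 with no FPKM filter. With a library left out, the log2 fold changes ranged for PDIA3 from -0.023 to 0.013, PDIA4 -0.046 to 0.00077, PDIA5 -0.069 to 0.061, ERP29 -0.064 to 0.0077, DNAJC10 -0.16 to 0.062, ATF6 -0.0032 to 0.080, HERPUD1 -0.14 to 0.0011 and DERL1 -0.013 to 0.045. With no FPKM filter, HSPA5, HYOU1, DNAJC3, CANX, MOGS and ATF6B lost their calls (adjusted p by edgeR = 0.0839, 0.0985, 0.0769, 0.0549, 0.0767 and 0.127); that fit adjusts over 33539 genes. Depth limits DERL3 most, which had 53 to 97 counts a library.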

Other observations

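Genes beside GANAB had smaller changes than GANAB itself. INTS5, which lies 122 bases away, had a log2 fold change of -0.11, with an adjusted p of 0.384 by edgeR. B3GAT3, an enzyme of proteoglycan assembly at a distance of 2672 bases, was lower, at -0.28 (0.0285). Of the 12 other tested genes nearby, the farthest at 43549 bases, UBXN1 and UQCC3 were called, at 0.20 and 0.44 (0.0496 and 0.0343). The largest estimate among the 12 was 0.79, for a gene without a symbol, and did not pass (adjusted p = 0.363 by edgeR). Over all tested genes 17.2% were called in either direction.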
